A study of Mus musculus with 6 samples.

Results

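State 9 segments that lie inside states 10 and 11 were examined in an 18-state map of the mouse genome (mm10) in hematopoietic stem cells (HSCs). A segment was taken when its state was 9 and the segments on both of its sides were in state 10 or state 11, on chromosomes 1 to 19. The rule took 2422 of the 3336 state 9 segments on these chromosomes, among 850831 segments of all states. They are called the enclosed segments here. They were chosen by the state numbers of the map itself, their own and those of both neighbours, so their state, their flanks and the runs they sit in are given as a description.

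The study profiled the histone variant H3.3 by ChIP-seq after micrococcal nuclease digestion, in HSCs of C57BL/6 bone marrow. Of 6 libraries, HIRA KO cells gave 2 with the H3.3 antibody and 1 input, and WT cells gave the same numbers. One treatment text covers every library: 2 injections of 20 ug poly(I:C) were used to delete Hira conditionally in blood-forming cells, and HSCs were sorted on day 7 after the first injection. The sources used here do not name the Cre driver, the ages or the number of animals per library. The only map analysed carries the WT H3.3 name in its file name, with no replicate, no KO column and no read counts, so KO and WT were not compared and no test over samples could be made. Ranges in brackets after a share are 95% Wilson intervals and reflect counting error alone, because regions of 1 map are not replicates. As a check of the cell label, 29 of 34 HSC regulators and markers (85.3%) had a position in states 3 to 6, beside 51.2% of all coding genes. The same share was 22.7% for erythroid, 16.7% for neutrophil and monocyte, 11.1% for B cell, 9.09% for T and NK cell and 40% for megakaryocyte genes. It was 92.3% for housekeeping, 91.7% for interferon response and 84.4% for Polycomb and Trithorax genes, so a high share is not particular to HSC genes. Kit, the stem cell factor receptor, lay in state 6, and Cd34, a surface sialomucin, in state 5.

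H3.3 replaces canonical H3 outside DNA replication, and HIRA is the chaperone that places it at promoters, enhancers and gene bodies. Mammalian gene starts fall broadly into CpG-rich ones, shared by housekeeping and many developmental genes, and CpG-poor ones, common among tissue-restricted genes. CpG-rich starts of silent developmental regulators are known in stem cells for Polycomb-marked chromatin that often also carries marks of active starts. Which tracks defined the 18 states is not given, so the states are described by position and carry no such name.

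The promoters below, from RefSeq (GRCm38.p6, the assembly behind mm10), show how CpG-rich and CpG-poor starts in the enclosed segments read. Each runs 5′ to 3′ from 250 bases before to 50 bases after the gene start, with CG dinucleotides in capitals. They are the highest, the median and the lowest by CpG observed over expected among the 1171 windows lying whole in an enclosed segment, and the promoter of the longest segment with such a window. Observed over expected compares the number of CG with that expected from the C and G content.
Rimklb, chr6:122486256-122486555, minus strand: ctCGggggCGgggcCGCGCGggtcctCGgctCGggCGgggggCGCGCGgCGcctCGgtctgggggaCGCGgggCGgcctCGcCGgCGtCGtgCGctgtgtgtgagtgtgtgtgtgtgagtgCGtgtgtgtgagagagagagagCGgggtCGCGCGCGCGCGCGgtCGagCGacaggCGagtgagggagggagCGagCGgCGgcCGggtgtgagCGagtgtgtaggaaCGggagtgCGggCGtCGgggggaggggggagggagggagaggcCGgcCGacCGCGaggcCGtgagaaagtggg
Ihh, chr1:74951623-74951922, minus strand: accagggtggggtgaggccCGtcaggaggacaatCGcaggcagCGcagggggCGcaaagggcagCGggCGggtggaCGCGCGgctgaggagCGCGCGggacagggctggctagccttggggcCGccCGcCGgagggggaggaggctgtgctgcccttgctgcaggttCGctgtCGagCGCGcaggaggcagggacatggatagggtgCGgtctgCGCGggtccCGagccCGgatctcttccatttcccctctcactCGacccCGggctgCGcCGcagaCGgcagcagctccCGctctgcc
Lrrc26, chr2:25289661-25289960, plus strand: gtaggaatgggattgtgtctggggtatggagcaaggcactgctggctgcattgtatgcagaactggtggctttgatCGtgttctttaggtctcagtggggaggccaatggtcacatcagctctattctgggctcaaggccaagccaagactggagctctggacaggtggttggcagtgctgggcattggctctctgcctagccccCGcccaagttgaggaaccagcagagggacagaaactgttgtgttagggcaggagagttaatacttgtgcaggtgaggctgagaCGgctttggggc
Zfp503, chr14:21989552-21989851, minus strand: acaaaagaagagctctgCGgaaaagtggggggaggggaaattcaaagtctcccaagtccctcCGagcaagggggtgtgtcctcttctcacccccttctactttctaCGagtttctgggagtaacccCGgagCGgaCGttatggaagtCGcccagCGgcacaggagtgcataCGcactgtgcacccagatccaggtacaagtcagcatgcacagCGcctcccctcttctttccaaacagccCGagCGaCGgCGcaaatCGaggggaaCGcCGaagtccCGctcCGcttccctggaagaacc
Rimklb, which encodes a glutamate ligase, had 47 CG and an observed over expected of 1.32. Ihh, the Hedgehog ligand of growing cartilage, had 30 CG and 0.774. Lrrc26, an auxiliary subunit of BK potassium channels, had 3 CG and 0.142. Zfp503, a developmental zinc finger repressor, had 19 CG and 0.747, in a segment of 5.2 kb. The segments around the other starts were 1.8 kb for Rimklb, 1.6 kb for Ihh and 1.0 kb for Lrrc26. These 4 were picked by CpG or by segment length, so they cannot show a relation between CpG and length.

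The enclosed segments were short. They spanned 0.2 to 5.4 kb, with a median of 1.4 kb and quartiles of 1.0 and 1.8 kb, and 25 of them were a single bin of 0.2 kb. Together they covered 3.71 Mb, which was 0.151% of autosomal bases. States 3 to 6 held 10278 of the 20085 known gene starts, and state 9 segments that touch them numbered 733, with a median of 1.0 kb and a maximum of 16 kb. Segments of state 10 had a median of 0.6 kb and those of state 11 of 2.4 kb. The enclosed share of state 9 was 72.6% (71.1 to 74.1%), and per autosome it lay between 65.7 and 79.6% (SD 3.38 over 19 autosomes). Their density ran between 0.662 and 1.54 per Mb over the autosomes, with a mean of 0.984 ± 0.216 (SD over 19 autosomes). Chromosome 16 had the fewest, 65, and chromosome 2 the most, 214.

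The flanks divided the segments unevenly. State 11 lay on both sides of 1381 segments (57.0%), state 10 on 1 side and state 11 on the other of 808 (33.4%), and state 10 on both sides of 233 (9.62%). Their median lengths were 1.4, 1.6 and 1.6 kb. A flanking segment of state 10 had a median of 0.6 kb and one of state 11 of 2.4 kb, the same medians as for these states over all autosomes. The quartiles differed in part. They were 0.4 and 1.2 kb for flanking state 10, against 0.4 and 0.8 kb for all of state 10. For flanking state 11 they were 1.0 and 4.6 kb, against 1.4 and 4.0 kb for all of state 11. Requiring state 11 on both sides leaves 1381 segments, 41.4% of state 9. Just outside the rule stood 776 state 9 segments with 1 flank in state 10 or 11. The other flank was state 3 in 158 of them, state 4 in 137, state 5 in 163 and state 6 in 187. A further 138 had neither flank in state 10 or 11.

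**Figure D1:**
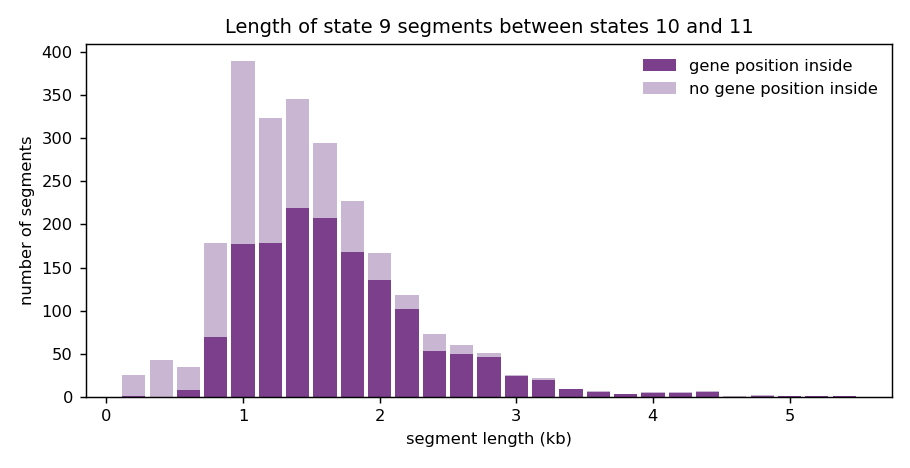
Number of enclosed state 9 segments (vertical axis) by length in kb in steps of 0.2 kb (horizontal axis), split into segments with a protein-coding gene position inside and without. Segments with a gene position had a median of 1.6 kb and those without of 1.2 kb.

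A protein-coding gene position lay inside 1492 of the 2422 enclosed segments, 61.6% (59.6 to 63.5%). A gene position is the start, or starts, of a gene in the RefSeq promoter table, and either end of the gene record for the genes without an entry there. Known starts alone were found in 1151 segments, 47.5% (45.5 to 49.5%). In state 9 segments that touch states 3 to 6 the share with a gene position was 39.6% (36.1 to 43.1%), in state 10 segments 1.70% and in state 11 segments 2.47%. These shares are not corrected for length. Over the autosomes the share in enclosed segments lay between 53.8 and 72.3% (SD 5.44). It was 63.1% with state 10 on both sides, 62.9% with both flanking states and 60.6% with state 11 on both sides, values whose intervals overlap. Where genes within 100 kb of the last gene kept along the chromosome were dropped, the share was 36.8%. A segment holding only a dropped gene then counted as without one, so this share could only be lower.

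Most segments with a gene held a single one. A single gene position was found in 1464 segments and positions of 2 genes in 28, while 0 segments held 3 or more, which by the Wilson interval allows a share of up to 0.158%. In all, 1497 of 20665 protein-coding genes on the autosomes had a position in an enclosed segment (7.24%). Their gene records had a median length of 38.9 kb, against 17.5 kb for all coding genes and 23.5 kb for genes with a position in states 3 to 6. Starts of long noncoding RNAs lay in 209 enclosed segments, 66 of which had no coding gene position.

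The share with a gene position increased with segment length. It was 8.74% of the 103 segments of 0.2 to 0.6 kb, 43.2% of those of 0.8 to 1 kb, 59.3% at 1.2 to 1.4 kb, 72.0% at 1.6 to 1.8 kb, 81.0% at 2 to 2.4 kb and 87.1% of the 201 segments of 2.6 to 5.4 kb. A longer window also has more room for a gene position, and no correction was made for that. Of the 930 segments without a coding gene position, 600 lay inside a coding gene record, 134 in noncoding records only and 196 in no record. The nearest coding gene position was a median of 7.59 kb away, with quartiles of 1.93 and 36.3 kb. It was within 1 kb for 154 of them and over 50 kb away for 178.

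**Figure D2:**
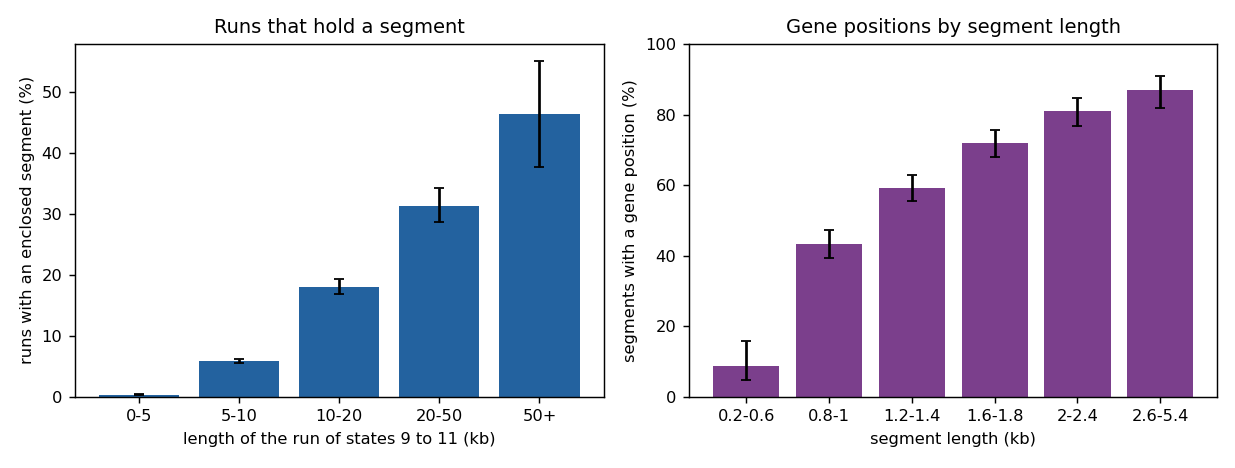
Left, share of unbroken runs of states 9, 10 and 11 that hold an enclosed segment (percent) by run length in kb; right, share of enclosed segments with a protein-coding gene position (percent) by segment length in kb, error bars being 95% Wilson intervals. Both shares climb with length, the first to 46.3% of runs of 50 kb or more and the second to 87.1% of segments of 2.6 kb or more.

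Relative to the space they fill, the enclosed segments held many starts. They held 1310 of 20085 starts in the promoter table (6.52%) in 0.151% of the bases, a fold of 43.2. State 9 as a whole, of which they are a part, held 1629 starts in 0.199% of the bases. Its fold of 40.8 was near theirs, so a high density was not shown to be particular to the enclosed segments. The same fold was 32.2 for state 3, 42.2 for state 4, 43.3 for state 5 and 53.7 for state 6. State 10, at 1.82, and state 11, at 0.70, were far below these although they border the enclosed segments.

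The starts sat off centre. For 1149 genes, each counted with 1 start, a median of 611 bases of the segment lay upstream of the start (quartiles 414 and 888) and 950 bases downstream (quartiles 680 and 1252). More of the segment lay downstream than upstream in 852 of the 1149, 74.2% (71.5 to 76.6%). In state 9 segments that touch states 3 to 6 this was so for 148 of 230 genes, 64.3% (58.0 to 70.3%). State 10 was the upstream flank of 27.9% of the genes and the downstream flank of 24.1%.

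At 1 kb downstream of the start 44.6% of the 1149 genes were in state 9, against 18.02% at 1 kb upstream. State 10 was most frequent at 1.2 kb upstream, with 18.5% of genes, and at 1.6 kb downstream, with 17.6%. State 11 reached 70.1% at 1.8 kb upstream and 72.3% at 2.6 kb downstream. At 5 kb, 41.8% of the genes upstream and 38.6% downstream were in states 17 and 18. States 3 to 6 held at most 1.04% of the genes at any offset within 5 kb.

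**Figure D3:**
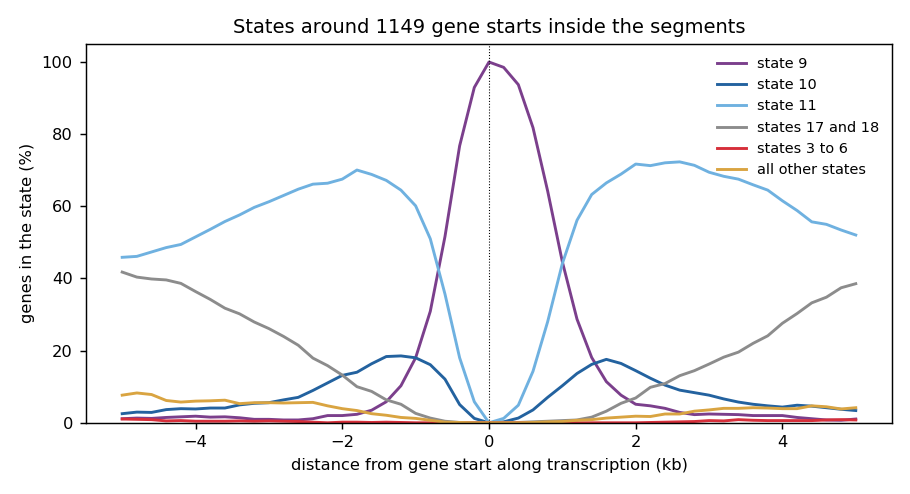
Share of 1149 genes (percent, vertical axis) in each state by distance from the start along the direction of transcription (kb, horizontal axis). State 9 is at 44.6% at 1 kb downstream and 18.02% at 1 kb upstream, and state 10 forms low shoulders of 18.5% and 17.6% on the 2 sides.

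States 9, 10 and 11 form unbroken runs, and each enclosed segment lies in one. The centre of a segment stood at a median of 0.512 of its run (quartiles 0.360 and 0.648), and its nearer edge was a median of 2.6 kb from the end of the run. Position was read along the chromosome without strand, so the median alone does not show that segments sit near the middle. By the rule a segment cannot stand at the end of a run, which also draws the quartiles inward. Of 100845 runs, 2181 held an enclosed segment (2.16%). Runs with one had a median length of 9.4 kb, against 2.6 kb for runs without, and state 10 made up 8.35% of their bases, against 1.74%. The rule builds in part of these contrasts, because a run with an enclosed segment needs a flank on each side of it. No state 9 was present in 97824 of the runs. The share of runs with an enclosed segment was 0.352% below 5 kb, 5.86% at 5 to 10 kb, 31.4% at 20 to 50 kb and 46.3% (37.8 to 55.1%) of the 123 runs of 50 kb or more. The run around a segment had a median of 10.2 kb and at most 184.8 kb.

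Under the rule no segment of states 3 to 6 touches an enclosed one, and this distance was measured for no other set of segments. From an enclosed segment the median distance to the nearest segment of states 3 to 6 was 54.4 kb, with quartiles of 20.2 and 131 kb. It was within 5 kb for 118 enclosed segments (4.87%) and over 100 kb for 764 (31.5%).

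Several enclosed segments shared a run in 198 cases, which took in 439 segments (18.1%). The run with the most, 5, covered 55.6 kb of the HoxB cluster at chr11:96246201-96301800 and held positions of Hoxb6, Hoxb7 and Hoxb9, factors that pattern the body axis. The longest run was 184.8 kb at the HoxC cluster, chr15:102852801-103037600, with 4 enclosed segments of 0.6 to 2.4 kb, including one of 0.8 kb at Hoxc4 and one of 1.4 kb at Hoxc9. The next, of 177 kb, held Pax2, a factor of kidney and eye development, and the third, of 142.4 kb at the HoxD cluster, held Hoxd9 among 4 segments. A run of 113.6 kb on chromosome 5 had 2 enclosed segments and no coding gene position in either. A run of 110 kb on the same chromosome held En2, a homeobox factor of the midbrain and hindbrain, in a segment of 2.2 kb, and its neighbour Cnpy1 in one of 1.4 kb.

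The 15 longest enclosed segments measured 4.2 to 5.4 kb, and 11 held a coding gene position. Of 6 segments of 4.2 kb, the 2 on chromosome 13 are among the 15. Hoxb7, by an end of its record, lay in the longest, of 5.4 kb, and Hoxb6 in one of 4.4 kb in the same run. Zfp503 followed with 5.2 kb. Guidance, adhesion and matrix genes were among them: Efna5, an ephrin ligand, with 5.0 kb, and Pcdh17, a protocadherin, Fat4, a giant cadherin, and Adamts9, a matrix protease, with 4.4 kb each. Secreted factors were Pdgfa, a platelet-derived growth factor chain, with 4.4 kb, and Fst, which binds activin, with 4.2 kb. Sfmbt2, which encodes an MBT domain protein, also had 4.4 kb. Gfi1, a repressor needed in HSCs and neutrophils, lay in a segment of 4.8 kb. The 4 without a gene position lay within the records of Sema6a, Fat1 and Tchh, and in no record at chr13:3357801-3362000.

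Promoter sequence was not used by the rule. The 1310 starts in enclosed segments had promoters with a median CpG observed over expected of 0.753 (quartiles 0.599 and 0.884), a GC content of 66.3% and 24 CG per 300 bases. Promoters of state 9 segments that touch states 3 to 6 had a median of 0.761 and those in states 3 to 6 of 0.793, ranges that overlap widely with those in enclosed segments. Starts in the states around the enclosed segments read differently, with medians of 0.399 in state 10 and 0.262 in state 11, and in states 17 and 18 the median was 0.182. Over all 20085 promoters it was 0.586. An observed over expected above 0.6 was found in 74.8% (72.4 to 77.1%) of promoters in enclosed segments, against 77.8% in states 3 to 6, 18.5% in state 10, 18.4% in state 11 and 48.9% over all.

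Short motifs were searched by exact match on both strands of these windows, as a description of letters and not of binding. GGGCGG, the GC box read by Sp1-like factors, was found in 74.1% of promoters in enclosed segments, 68.1% in states 3 to 6, 25.2% in state 11 and 47.0% over all. CCGGAAG, a core read by ETS factors, was found in 4.73% (3.71 to 6.02%) of those in enclosed segments, against 11.6% (8.20 to 16.2%) in state 9 that touches states 3 to 6, 20.3% in states 3 to 6 and 11.9% over all. Those intervals for enclosed segments and for state 9 that touches states 3 to 6 do not overlap, and the difference was not tested. GCATGCGC, an NRF1 core, was in 2.37% of promoters in enclosed segments, 5.90% in states 3 to 6 and 3.55% over all. CCAAT was in 30.1% of promoters in enclosed segments, against 38.3% in states 3 to 6, 38.3% in state 11 and 38.1% over all. TATAAA was in 7.10% of them, against 5.90% in states 3 to 6, 22.1% in state 11 and 12.7% over all. CAGCTG, an E-box, was in 16.6%, against 13.9% in states 3 to 6, 17.2% in state 11 and 15.6% over all. In state 9 that touches states 3 to 6 GGGCGG was in 73.6% of promoters, CCAAT in 32.8% and CAGCTG in 12.4%. The intervals there were 1.91 to 6.70% for GCATGCGC and 3.98 to 10.1% for TATAAA. For every motif but CCGGAAG the intervals of that class and of enclosed segments overlap. Those shares were therefore not shown to be particular to enclosed segments. None of these 6 motifs contains another.

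**Figure D4:**
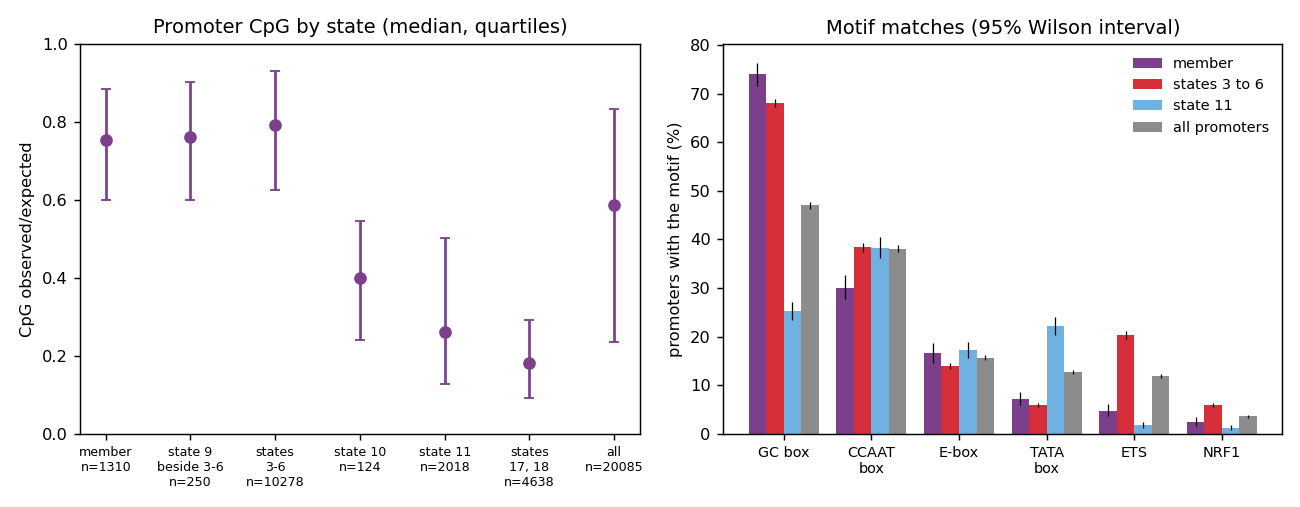
Left, CpG observed over expected (no unit) of promoters by the state of the start, as median (point) and quartiles (bars), with the number of promoters under each; right, share of promoters with each motif (percent) with 95% Wilson intervals. "Member" is an enclosed segment. Enclosed segments and states 3 to 6 lie close together on the left, while the ETS bar on the right is 4.73% against 20.3%.

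Genes of body patterning were frequent in enclosed segments. Of 335 developmental transcription factors in 9 lists, 128 had a position in one (38.2%, 33.2 to 43.5%), beside 7.24% of all coding genes. With state 11 required on both sides the share was 15.2%. The 7.24% does not apply to that setting, for which no share of all coding genes is given. Another 97 of the 335 (29.0%) had positions in state 11 and no other state, beside 9.03% of all coding genes. In states 3 to 6, 44 had a position (13.1%), beside 51.2% of all coding genes. Homeobox factors outside the Hox clusters reached 48 of 103, among them Nkx2-2, a factor of the ventral spinal cord, in 1.0 kb, Nkx3-2 in 1.2 kb, Nkx6-1, a factor of pancreatic beta cells and motor neurons, in 3.0 kb and Lhx2 in 1.8 kb. Nkx2-1 and Nkx2-5, factors of lung and heart, lay in state 11. Hox genes had 10 of 39, with Hoxa2 in 1.6 kb, Hoxa13 in 1.0 kb and Hoxb1 in 1.4 kb, while Hoxa3 lay in state 3.

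Forkhead factors had 16 of 41, with Foxa1 and Foxa2, pioneer factors of endoderm, in 2.2 kb each and Foxc1 in 4.0 kb. Foxa3 lay in state 6. Basic helix-loop-helix factors of development had 20 of 50, with the neural factors Neurog2 in 2.6 kb and Atoh7 in 1.6 kb, while Neurog1 and Neurog3 lay in state 11. SOX factors had 6 of 18, including Sox1 in 1.6 kb, Sox9, a factor of cartilage and testis, in 1.4 kb and Sox11 in 1.6 kb. Sox2 lay in state 11 and Sox4 in state 5. T-box factors had 6 of 16, including Tbx1 in 2.8 kb and Tbx20 in 1.0 kb, while T, the brachyury factor, lay in state 11. Of 9 PAX factors 1, Pax2, had a position in an enclosed segment, of 1.8 kb, and 6 had positions in state 11 and no other state. GATA factors had 1 of 5, Gata6, in 2.8 kb, while Gata2, a factor of HSCs, lay in states 5 and 6 and Gata3 in state 3. The intervals for PAX (1.99 to 43.5%) and GATA factors (3.62 to 62.4%) include the 7.24% of all coding genes. Zinc finger and other developmental factors had 20 of 54, with Zic5 in 2.6 kb, Gli3, a Hedgehog effector, in 2.8 kb and Sall1 in 2.2 kb.

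Of 127 genes for ligands, receptors and inhibitors of developmental pathways, 54 had a position in an enclosed segment (42.5%, 34.3 to 51.2%). Wnt ligands had 12 of 19, with Wnt2 in 1.0 kb, Wnt2b in 2.0 kb, Wnt3 in 1.0 kb and Wnt4 in 1.6 kb, while Wnt1 and Wnt3a lay in state 11. Wnt receptors and secreted inhibitors had 12 of 32, with the receptors Fzd2 in 3.0 kb, Fzd10 in 1.8 kb, Ror1 in 1.6 kb and Lgr5, a coreceptor, in 1.4 kb. The receptor Fzd1 lay in state 6. BMP and TGF-beta ligands and antagonists had 16 of 32, with Bmp2 in 2.0 kb, Bmp4 in 1.2 kb, Bmp6 in 1.2 kb and Bmp7 in 3.2 kb. Fibroblast growth factors had 8 of 20, with Fgf3 in 2.2 kb and Fgf8 in 1.4 kb. Hedgehog genes had 3 of 10, including Ihh and the ligand-binding inhibitor Hhip in 1.4 kb, while Shh lay in state 11. Notch genes had 3 of 14, the ligands Dll1 in 3.0 kb and Jag2 in 2.6 kb and the noncanonical Dlk2 in 1.8 kb. The receptors Notch1, in state 3, and Notch2, in state 6, were outside.

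Genes of nerve cells formed the third large group. Of 346 genes for guidance, channels, receptors and synapses, 110 had a position in an enclosed segment (31.8%, 27.1 to 36.9%). Axon guidance genes had 26 of 67, with Efna2 in 1.8 kb, Efna3 in 4.0 kb and the ephrin receptor Epha2 in 2.4 kb, while Efna1 lay in state 3 and Efna4 in state 6. Potassium channels had 28 of 92, with Kcna2 in 1.8 kb and Kcna4 in 1.2 kb, and calcium and sodium channels 12 of 39, with Cacna1b in 1.6 kb and Cacna1c in 2.6 kb. Transmitter receptors had 25 of 94, with the adrenergic receptors Adra2a in 3.4 kb and Adrb1 in 3.0 kb. Synaptic and neuronal genes had 19 of 54, with Syt2 in 1.2 kb and Syn2 in 1.4 kb.

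Promoters of these lists were set side by side by the state of the start, with no test. Developmental transcription factors had a median CpG observed over expected of 0.756 (quartiles 0.596 and 0.897) at 89 promoters in enclosed segments, 0.675 (0.466 and 0.805) at 90 in state 11 and 0.766 (0.599 and 0.935) at 38 in states 3 to 6. These ranges overlap widely. For the nerve cell genes the medians were 0.759 (quartiles 0.590 and 0.886) at 102 promoters in enclosed segments, 0.447 (0.305 and 0.602) at 99 in state 11 and 0.631 (0.444 and 0.843) at 48 in states 3 to 6. For the signalling genes they were 0.795 (quartiles 0.725 and 0.897) at 46 promoters in enclosed segments, 0.622 (0.402 and 0.744) at 13 in state 11 and 0.727 (0.674 and 0.933) at 15 in states 3 to 6.

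**Figure D5:**
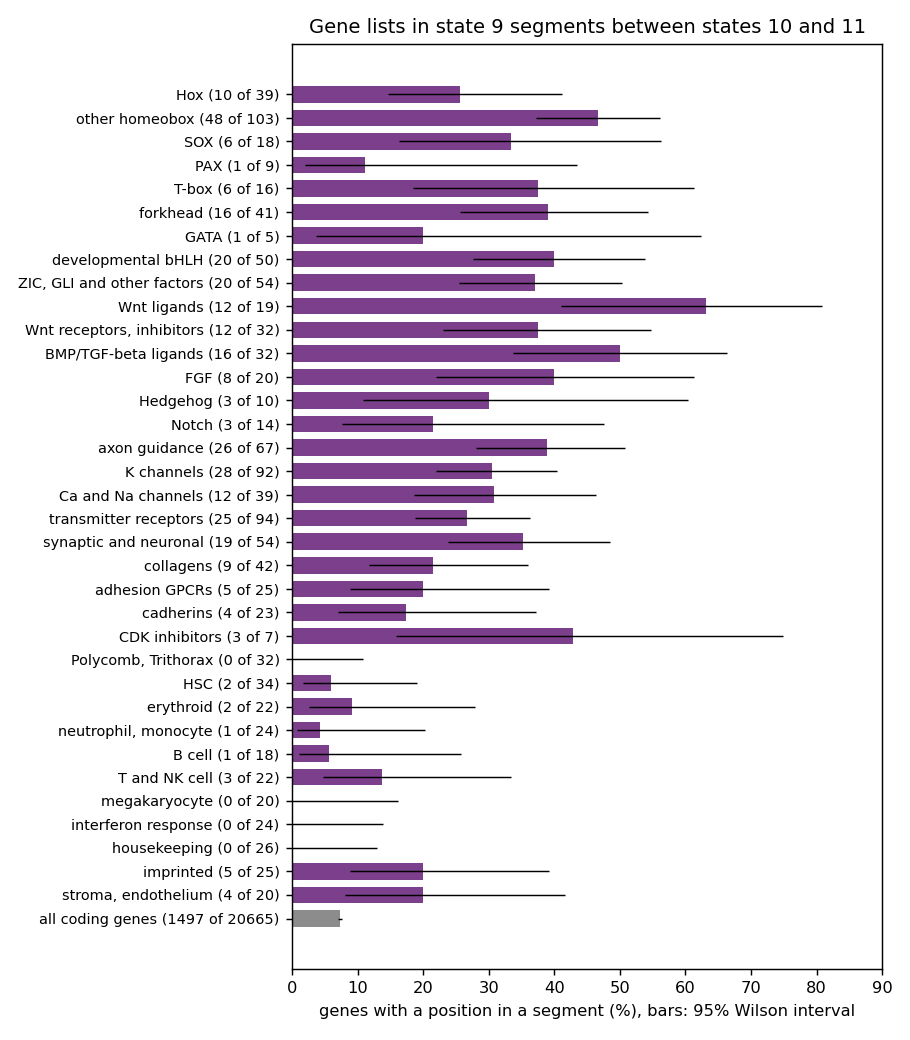
Share of genes with a position in an enclosed segment (percent, horizontal axis) for 35 gene lists and all coding genes, with the count of genes; black lines are 95% Wilson intervals. Wnt ligands stand at 63.2% and other homeobox factors at 46.6%, while 4 lists are at 0 and all coding genes at 7.24%.

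Of 106 genes of mature blood lineages 7 had a position in an enclosed segment (6.60%, 3.24 to 13.0%), a share near the 7.24% of all coding genes. They were the red cell skeleton genes Ank1, in 2.0 kb, and Sptb, in 2.2 kb, the myeloid factor Cebpa, in 3.4 kb, the B cell factor Ebf1, in 1.4 kb, and the T and NK cell factors Tcf7, in 1.6 kb, Lef1, in 2.8 kb, and Tbx21, in 1.8 kb. Elane and Mpo, neutrophil granule enzymes, lay in states 17 and 16. Of 34 HSC genes 2, Erg and Gfi1, had a position in one (5.88%, 1.63 to 19.1%). The lists of 20 megakaryocyte genes, 24 interferon response genes, 26 housekeeping genes and 32 Polycomb and Trithorax genes had 0, for which the Wilson interval reaches 16.1, 13.8, 12.9 and 10.7%, each above the 7.24% of all coding genes. Isg15 and Irf7, interferon response genes, lay in state 3, and Gapdh in state 5. Ezh1 lay in a state 9 segment outside the rule and Ezh2 in state 5, both being Polycomb methyltransferases.

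CDK inhibitors had 3 of 7, Cdkn1c in 2.6 kb, Cdkn2a in 2.0 kb and Cdkn2b in 1.8 kb, while Cdkn1b lay in state 6. Imprinted genes had 5 of 25 (20%, 8.86 to 39.1%), including Igf2 in 2.8 kb and Grb10, an adaptor of insulin signalling, in 3.2 kb. Collagens had 9 of 42, adhesion G protein-coupled receptors 5 of 25 and cadherins 4 of 23, with Cdh1 in 1.4 kb and Cdh2 in 2.6 kb. Those shares were 21.4%, 20% and 17.4%, beside 7.24% of all coding genes. The interval for cadherins, 6.98 to 37.1%, includes 7.24%. Genes of marrow stroma and endothelium had 4 of 20 (20%, 8.07 to 41.6%). They were the chemokine Cxcl12 in 1.8 kb, the leptin receptor Lepr in 1.0 kb, Nes in 2.0 kb and Alpl in 1.0 kb. The lists held 328 of the 1497 genes with a position in an enclosed segment (21.9%), so most of those genes were in none.

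Some genes had a start in an enclosed segment and another elsewhere. Of the 1149 genes with a known start in one, 185 had another start over 1 kb away outside the enclosed segments. For 43 of the 185 (23.2%) it lay in states 3 to 6, below the 51.2% of all coding genes with a position there. For 88 another start lay in states 9 to 11. Of all coding genes, 21.6% had a position in states 9 to 11, enclosed segments included. Erg, an ETS factor of HSCs, had a start in an enclosed segment of 2.0 kb and others in states 5 and 17, the one in state 5 lying 127 kb away. Hoxa10 had a start in an enclosed segment of 1.8 kb and another 5.92 kb away in state 6. Runx3, chosen after its values were seen, had a start in an enclosed segment of 3.4 kb and another 31.9 kb away in state 4.

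Of 919 microRNA hairpins, 12 (1.31%) lay in enclosed segments, in 8 of them, beside the 0.151% of autosomal bases that these segments cover. State 9 as a whole, of which they are a part, held 19 hairpins in 0.199% of the bases. A high density of hairpins was therefore not shown to be particular to the enclosed segments. The 3 loci of miR-9, an RNA of neural progenitors, were all among the 12. Mir9-1 lay in a segment of 1.8 kb, Mir9-2 in 1.4 kb and Mir9-3 in 1.2 kb. Mir132 and Mir212, known from neurons, lay together in a segment of 2.8 kb, and their 3p arms share a seed. These mature sequences from RefSeq, with seed bases 2 to 8 in capitals, show the families.
mmu-miR-9-5p: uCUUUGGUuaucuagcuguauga
mmu-miR-132-3p: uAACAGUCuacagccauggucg
mmu-miR-212-3p: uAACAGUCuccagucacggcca
The other hairpins were Mir3093 and Gm25641 in the segment of Mir9-1, Gm51268 in that of Mir9-2, and Mir1199, Mir5126, Mir7229 and Gm51264 in segments of 1.2 to 3 kb. Gm25641 and Gm51268 lie opposite miR-9 hairpins on the other strand. The map says only which state covers a hairpin and nothing of its transcript.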

How the data were processed

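The authors deposited a segmentation in which each segment has a state number and no count, coverage or score, as a dense and an expanded track; depth is unknown. Per the file headers, states were ordered by emission. Bowtie2, deepTools, MACS2, HOMER and mm10 appear, without versions, in the submitters' processing notes; the input tracks of the map were not given in the sources used here. The 2 tracks held the same segments. Enclosed segments were taken from the dense track.

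Starts came from RefSeq promoters, which cover 16457 of 20665 coding genes and have no entry used for chromosome 18; either end of the gene record stood in for the others. Shares were counted with Python 3.11.15, pandas 2.3.3, NumPy 2.4.6 and SciPy 1.17.1 and drawn with matplotlib 3.10.9, and the counting was tested on simulated data. Members and gene lists were chosen with earlier results of these data known, and the pattern for transmitter receptors was narrowed after it was seen to take unrelated genes. Named genes are those in the 15 longest segments and the 5 longest runs, and a choice among the first 4 genes of each list in an enclosed segment and the first 2 outside; some genes this takes are not reported here, and other names were chosen after their values were seen. Alternatives changed chromosomes, segment length, track, flanks, gene positions and overlap.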

Additional observations from a re-analysis of the deposited data

How the results depend on the processing

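No paired analysis was possible because 1 map holds no replicate or KO column, and no replicate could be left out. Of 38 alternatives to 7 results, 27 stayed within their limits and 11 did not. The limit was the counting interval for shares and the spread over autosomes for medians. For the number of segments it was only a fixed fold of the main count. Requiring flanks of at least 2 bins left 1995 segments, against 2422, and was counted as within that fold. With state 11 on both sides there were 1381 enclosed segments, 41.4% of state 9, and 15.2% of the developmental transcription factors lay in one. Without segments of 1 bin, 74.6% of state 9 was enclosed. The share of enclosed segments with a coding gene was 68.0% when a position within 1 kb counted and 66.8% with all annotated genes. It was 53.7% with either end of each record and 43.1% with the whole promoter window inside. With genes within 100 kb of the last gene kept dropped, which can only lower the share, it was 36.8%. Chosen after seeing the data, starts of the promoter table only gave 47.5%. Within 1 kb, 46.0% of the developmental transcription factors were included. No share of all coding genes is given beside this value or beside the 15.2%. The medians of segment length, run length and CpG observed over expected stayed within the spread over autosomes under each alternative tried on them. The map gives no depth, so how firmly a bin was assigned to its state is unknown. Differences between states are descriptions of 1 map, tied to WT by a file name.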

Other observations

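Gene families were also counted by symbol stem, chosen here after their values were seen. Of 19 genes with the stem Adamts, matrix proteases, 8 had a position in an enclosed segment. So did 6 of 10 genes with the stem Pcdh, protocadherins outside the gene clusters, whose members have other stems. Of 388 genes with the stem Zfp, zinc finger proteins, 8 did (2.06%), and of 967 predicted genes with the stem Gm, 15 did (1.55%), both below the 7.24% of all coding genes. The lymphoid transcription factors Irf4 and Eomes had starts in enclosed segments of 3.6 and 3.4 kb.

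Among the 28 segments with positions of 2 genes, Evc and Evc2, neighbouring genes for proteins of the primary cilium, shared one of 3.2 kb, and Gabra4 and Gabrb1, GABA receptor subunits, one of 1.6 kb. Fgf12 had starts in 3 enclosed segments. The record of Nrxn2, a presynaptic adhesion gene, overlapped 4 enclosed segments, as did that of Zfp423. The segment furthest from a coding gene position measured 0.4 kb at chr14:91073001-91073400 and lay 2602 kb from one.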
